A study of Mus musculus with 8 samples.

Results

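687g is a mouse mammary carcinoma cell line, and its 2 RNA libraries were set against the 6 libraries of the other lines in the study, pB2, pB3 and Epcam hi. A gene was counted as on only in 687g where both 687g libraries held at least 10 CPM (counts divided by library size, which makes libraries of different depth comparable) and all 6 other libraries held under 1 CPM. It was counted as off only in 687g where both 687g libraries held under 1 CPM and all 6 others at least 10 CPM. Of the 53379 genes in the files, 27 were on only in 687g (0.0506%) and 21 were off only in 687g (0.0393%). All 48 were among the 15890 genes that passed a filter on low counts, each through the lines in which it was high. The CPM values chose these genes, so they are given below as a description, with no test.

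687g and Epcam hi come from tumours of MMTV-PyMT-Snail-IRES-YFP reporter mice, and pB2 and pB3 from tumours of MMTV-PyMT mice, in each case on the C57BL/6 background. The MMTV promoter drives the polyoma virus middle T oncogene in mammary epithelium, so all 4 lines share that oncogene. The labels do not say which promoter drives Snail and the yellow fluorescent protein, whether any line is a single clone, or whether the 2 libraries of a line come from separate cultures. All cells were untreated, grew as adherent monolayers and received the same medium. The p-values below therefore measure only the spread between these libraries, and what belongs to 687g as a line and what belongs to its tumour of origin cannot be told apart.

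Total counts were 19149916 and 16094250 in the 687g libraries and ranged from 12442730 to 18515857 in the others. Replicate libraries correlated across genes with r = 0.986 in 687g and with r from 0.976 in Epcam hi to 0.993 in pB3. A difference of over 2-fold between replicates was found for 6.32% of genes in 687g and for 13.4% in Epcam hi, the line with the largest share. The simple keratins of glandular epithelium were present in 687g, Krt8 at 250 and 201 CPM and Krt18 at 1159 and 1068 CPM. Epcam was low there, at 3.85 and 3.69 CPM, and the milk protein genes Csn1s1, Csn2, Wap and Lalba had 0 counts in both 687g libraries.

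Carcinoma cells can lose epithelial features in the epithelial-mesenchymal transition (EMT), in which junction proteins are lost and matrix and motility genes are gained. Transcription factors of the Snail and Zeb families drive it in part by binding the letters CAGGTG, or CACCTG on the other strand, in the promoters of epithelial genes such as that of E-cadherin. Wnt proteins are lipid-modified signals of mammary and limb development, and Notum is a secreted enzyme that removes their lipid and so inactivates them. Notum is itself a target of the pathway, which makes it a feedback inhibitor.

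The 3 genes proposed as markers of 687g, Notum, Smoc2 and Tbx2, were all far higher there, but Notum alone met the rule for genes on only in 687g. Notum (chr11:120653788-120661175, GRCm38) stood at 184 and 104 CPM in 687g, against 0.0740 and 0.159 CPM in pB2, 0.470 and 0.323 CPM in pB3, and 0.141 and 0.0547 CPM in Epcam hi. Smoc2 (chr17:14279506-14404790), a secreted matrix protein related to SPARC, stood at 786 and 704 CPM in 687g, against 0.296 and 0.477 CPM in pB2, 3.69 and 1.23 CPM in pB3, and 1.05 and 0.383 CPM in Epcam hi. Tbx2, a T-box transcriptional repressor of limb, heart and mammary development, stood at 10.8 and 7.38 CPM in 687g, at 0.222 and 0.318 CPM in pB2, and at 0 in all 4 libraries of pB3 and Epcam hi. The 687g libraries were thus above every other library for all 3 genes. Smoc2 missed the rule because 3 of the other libraries exceeded 1 CPM, and Tbx2 because 1 of the 687g libraries fell under 10 CPM. Against the mean of the 3 other lines, Smoc2 was higher by 9.72 ± 0.28 on the log2 scale (fitted value ± standard error; edgeR quasi-likelihood test, adjusted p = 1.86e-11). Mean CPM of Tbx2 in 687g was 101 times that of the other lines, a description of a gene that passed the filter on low counts through 687g.

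**Figure D1:**
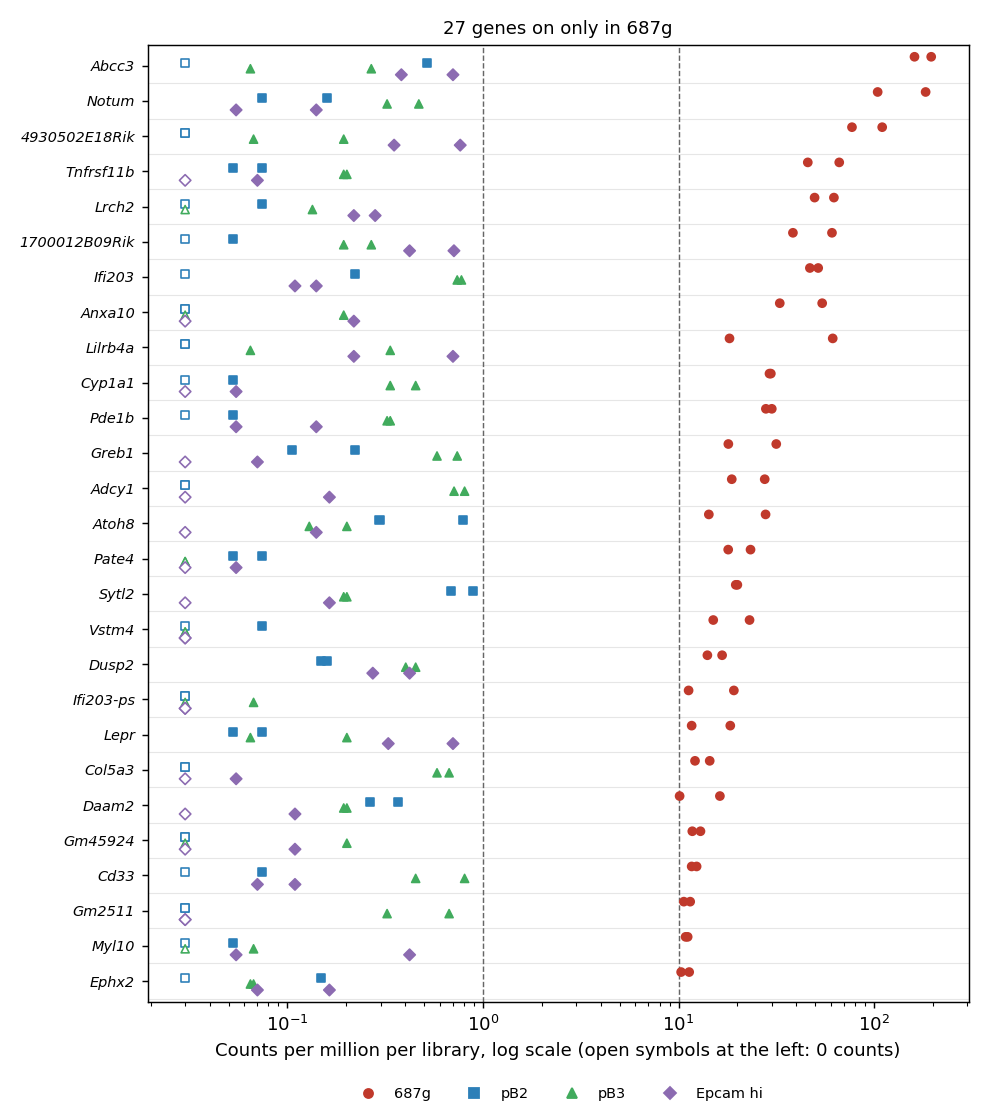
Each row is 1 of the 27 genes on only in 687g, in order of mean level in 687g, and each symbol is the CPM of 1 library on a log axis. Circles are 687g, squares pB2, triangles pB3 and diamonds Epcam hi, dashed lines mark 10 and 1 CPM, and open symbols mark 0 counts. The 687g libraries lie between 10.1 and 196 CPM and no library of another line exceeds 0.887 CPM.

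Of the 27 genes on only in 687g, 24 are annotated as protein coding. 4 carry symbols of predicted genes and are counted but not described, which leaves 23. Mean levels in 687g ranged from 10.8 to 178 CPM with a median of 21.1 CPM, and the mean over the other lines had a median of 0.204 CPM. Summed counts ranged from 354 to 5914 per gene over the 2 687g libraries, and from 1 to 34 over the 6 others. The other line with the highest mean was pB3 for 13 of the genes, Epcam hi for 9 and pB2 for 5. The 2 687g libraries differed by a median of 1.30-fold, by over 1.5-fold for 10 genes and by over 2-fold for 1, Lilrb4a. Per kilobase of exon, which allows levels of different genes to be compared, Notum was the highest of the 23 at 59.8 CPM per kb in 687g, ahead of Abcc3 at 31.3 and Tnfrsf11b at 19.9.

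Genes for secreted and matrix proteins made up the first group. Tnfrsf11b encodes osteoprotegerin, a soluble decoy receptor that blocks the bone cytokine RANKL. It stood at 45.8 and 66.4 CPM in 687g, against a lowest, median and highest value of 0, 0.0721 and 0.201 CPM in the 6 other libraries. Its ligand gene Tnfsf11 had 0 counts in all 8 libraries. Pate4, for a small secreted cysteine-rich protein, held 18.0 and 23.4 CPM in 687g, against 0 to 0.0740 CPM elsewhere. Col5a3, a chain of type V collagen, held 14.4 and 12.1 CPM in 687g and at most 0.671 CPM elsewhere, in pB3. A second chain, Col5a1, was not confined to 687g, with 128 and 89.4 CPM in 687g, 60.4 and 63.7 CPM in pB3, and 0.765 to 0.984 CPM in pB2 and Epcam hi.

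Transport and metabolism were represented by 3 genes. Abcc3, an exporter of organic anions and bile salts of the ABC transporter family, stood at 196 and 161 CPM in 687g, against 0.518 and 0 CPM in pB2, 0.269 and 0.0647 CPM in pB3, and 0.703 and 0.383 CPM in Epcam hi. Cyp1a1, a cytochrome P450 and the classical target of the aryl hydrocarbon receptor, stood at 29.7 and 29.2 CPM in 687g, with at most 0.453 CPM elsewhere. Ephx2, soluble epoxide hydrolase, had 10.3 and 11.3 CPM in 687g and at most 0.164 CPM elsewhere, which puts it close to the threshold.

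The receptor gene Ahr, which was looked up because of Cyp1a1 after the values were seen, had 231 and 126 CPM in 687g, against 3.92 and 4.93 CPM in pB2, 20.3 and 17.3 CPM in pB3, and 14.3 and 13.1 CPM in Epcam hi. Its libraries did not overlap, and the log2 difference from the mean of the other lines was 4.09 ± 0.19 (edgeR, adjusted p = 9.10e-10). Other genes known to respond to this receptor did not share the pattern. Tiparp had 132 and 145 CPM in 687g, inside the 47.1 to 215 CPM of the other libraries (adjusted p = 0.261). Cyp1b1 stood at 0.613 and 0.134 CPM in 687g, 49.9 and 59.2 CPM in pB2, and 0.109 to 0.453 CPM in pB3 and Epcam hi, and Cyp1a2 had at most 1 count in any library. The promoter of Cyp1a1 is shown for the letters GCGTG, the core to which the receptor complex binds, and for the TATAAA box, with both in capitals. The 300 bases are those from 250 before to 50 after the start site in RefSeq (GRCm38.p6, chr9:57697363-57697662, plus strand), where GCGTG begins 54 and TATAAA 30 bases before the start.
Cyp1a1: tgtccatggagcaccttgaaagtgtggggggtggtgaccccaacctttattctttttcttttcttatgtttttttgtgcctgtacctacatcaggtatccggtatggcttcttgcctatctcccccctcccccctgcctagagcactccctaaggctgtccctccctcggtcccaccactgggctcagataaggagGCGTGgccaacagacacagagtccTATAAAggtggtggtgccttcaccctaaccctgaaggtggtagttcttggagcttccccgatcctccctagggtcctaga
GCGTG or its complement CACGC was found in 11 of the 17 promoters of genes on only in 687g that the table holds, in 52.2% of the promoters of tested protein coding genes, and in 32.5% of all 27025 promoters.

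Membrane proteins and receptors formed a further group. Lepr, the leptin receptor, held 18.4 and 11.7 CPM in 687g and 0.0530 to 0.703 CPM elsewhere, and the leptin gene Lep had 0 counts in every library. Lilrb4a, an inhibitory receptor known from myeloid cells, was the most variable of the genes, with 18.2 and 61.5 CPM in 687g and at most 0.703 CPM elsewhere. Cd33, a sialic acid binding inhibitory receptor of myeloid cells, held 12.4 and 11.7 CPM in 687g and at most 0.806 CPM elsewhere. Both are used as markers of blood cells, and the leukocyte gene Ptprc had 0 counts in both 687g libraries. Which cells the transcripts came from was not tested. Vstm4, a membrane protein with an immunoglobulin domain, held 15.1 and 23.1 CPM in 687g and was at 0 in 5 of the 6 other libraries.

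Signalling and gene regulation made up a group of their own. Adcy1, an adenylyl cyclase that makes cyclic AMP, stood at 27.6 and 18.7 CPM in 687g, and Pde1b, a calmodulin-dependent phosphodiesterase that breaks cyclic nucleotides down, at 30.0 and 28.0 CPM. In the other libraries they reached at most 0.806 and 0.336 CPM, in pB3 in both cases. Dusp2, a phosphatase of MAP kinases, held 14.1 and 16.7 CPM in 687g, against 0.148 to 0.453 CPM elsewhere. Greb1, a gene induced by oestrogen in breast cancer cells, held 31.6 and 18.0 CPM in 687g, against 0 to 0.739 CPM elsewhere. The oestrogen receptor gene Esr1 did not follow it, with 8.92 and 3.76 CPM in 687g and 3.25 to 8.85 CPM elsewhere (adjusted p = 0.270). Atoh8, a basic helix-loop-helix transcription factor, held 27.9 and 14.3 CPM in 687g and 0 to 0.795 CPM elsewhere.

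Daam2, a formin that links Wnt receptors to the actin cytoskeleton, held 16.3 and 10.1 CPM in 687g and at most 0.370 CPM elsewhere, the 687g value nearest to the threshold from inside. Its paralogue Daam1 went the other way, with 30.1 and 23.3 CPM in 687g and 34.2 to 90.8 CPM elsewhere (log2 difference -0.91 ± 0.16, adjusted p = 4.39e-04). Sytl2, which tethers Rab27 vesicles, held 19.6 and 20 CPM in 687g and reached 0.887 CPM in pB2, the highest value of any other library among the 27 genes. Anxa10, a calcium-binding annexin, held 33.0 and 54.3 CPM in 687g and was at 0 in 4 of the 6 other libraries. Lrch2, of the leucine-rich repeat proteins, and Myl10, a myosin regulatory light chain, held 62.3 and 49.7 CPM, and 10.9 and 11.1 CPM, in 687g.

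Ifi203 and the pseudogene Ifi203-ps lie 122 kb apart on chromosome 1, in the cluster of interferon-inducible Ifi200 genes that sense nucleic acids or regulate transcription. Ifi203 held 51.8 and 47.0 CPM in 687g, against 0 to 0.776 CPM elsewhere, and Ifi203-ps 11.3 and 19.2 CPM in 687g, with 1 count in all 6 other libraries together. The rest of the cluster was examined after these values were seen. Mndal, whose annotated span overlaps those of Ifi203 and Ifi211, stood at 264 and 255 CPM in 687g, against 0.0740 to 2.08 CPM elsewhere (log2 difference 8.99 ± 0.21, edgeR, adjusted p = 7.08e-12). Aim2, the DNA sensor of the inflammasome, held 87.1 and 125 CPM in 687g, against 0.518 to 4.33 CPM elsewhere (6.09 ± 0.23, adjusted p = 1.52e-10). Ifi204 held 78.9 and 75.1 CPM in 687g, against 0.318 to 6.38 CPM elsewhere (5.19 ± 0.23, adjusted p = 7.10e-10), and Ifi211 held 57.0 and 56.0 CPM in 687g, against 0.0740 to 11.2 CPM elsewhere (4.64 ± 0.19, adjusted p = 2.61e-10). The cluster did not move as a block. Ifi209 had 8.86 and 11.7 CPM in 687g, against 268 and 195 CPM in Epcam hi, and Ifi202b had 1.56 and 1.81 CPM in 687g, against 15.9 and 52.2 CPM in Epcam hi. Related copies and overlapping annotations can share reads, here and between Lilrb4a and its neighbour Lilr4b. How many reads were shared was not measured, so single values in these families are uncertain.

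**Figure D2:**
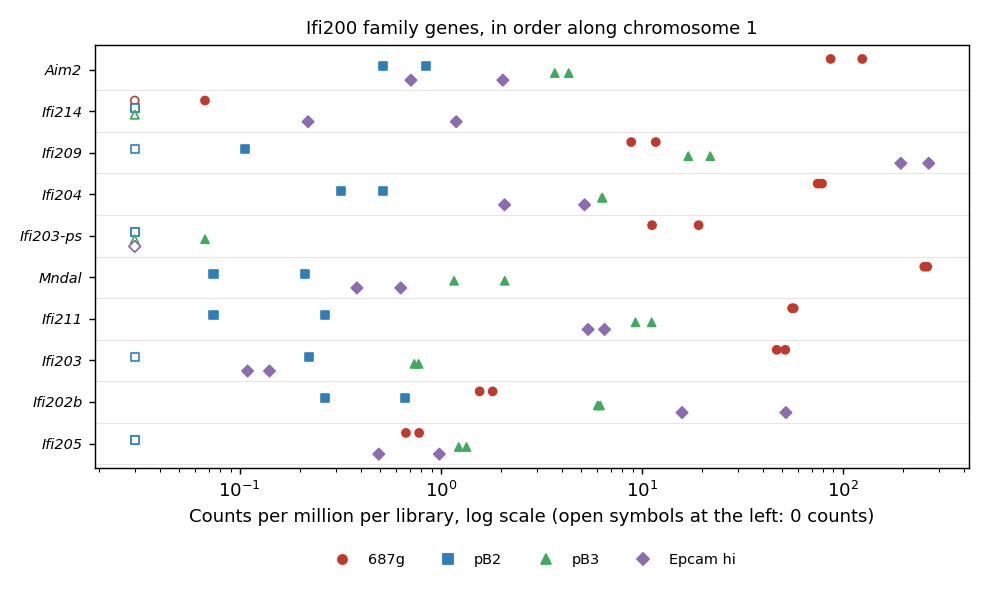
Rows are the Ifi200 family genes with at least 1 CPM in any library, in their order along chromosome 1, and symbols are the CPM of each library on a log axis, as in the plot of genes on only in 687g. Aim2, Ifi204, Ifi203-ps, Mndal, Ifi211 and Ifi203 are highest in 687g, Ifi209, Ifi202b and Ifi214 in Epcam hi, and Ifi205 in pB3.

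Interferon-stimulated genes outside that cluster gave no like pattern. Of 18 tested, 3 were called higher in 687g and 2 lower, and 13 were not called (median log2 difference -0.36). Over all 15890 genes tested, edgeR called 3399 higher in 687g than in the mean of the other lines (21.4%) and 2726 lower (17.2%), 38.5% in either direction, with a median log2 difference of -0.02. When libraries were scaled by their totals alone, the calls were 2804 higher and 3503 lower, so that 44.5% of calls were higher against 55.5% with the scaling, and the median shifted to -0.15. Ifit2 had the lowest fitted difference among the interferon-stimulated genes, with 0.390 and 0.0671 CPM in 687g, against 25.4 and 24.6 CPM in pB2, 8.66 and 10.2 CPM in pB3, and 1.62 and 0.601 CPM in Epcam hi (-4.67 ± 0.48, adjusted p = 3.25e-06).

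All 21 genes off only in 687g are protein coding and were named. Their mean in 687g ranged from 0.117 to 0.944 CPM, and their mean over the other lines ranged from 18.7 to 179 CPM with a median of 67.1 CPM. Summed counts ranged from 4 to 31 over both 687g libraries and from 1799 to 17472 over the 6 others. No member was at 0 in both 687g libraries. In bulk RNA, fewer cells with a transcript and less transcript per cell cannot be told apart. Many of the 21 are known from epithelial junctions, surface proteolysis and polarised transport.

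Tight junction genes made up the first group. Cldn7 (chr11:69964779-69967885), a claudin of the tight junction and lateral membrane, stood at 0.558 and 0.671 CPM in 687g, against 116 and 114 CPM in pB2, 49.4 and 49.2 CPM in pB3, and 353 and 396 CPM in Epcam hi. Cldn3 (chr5:134986214-134987472), a barrier-forming claudin, stood at 0.892 and 0.939 CPM in 687g, against 85.3 and 73.3 CPM in pB2, 38.8 and 46.1 CPM in pB3, and 166 and 165 CPM in Epcam hi. Ocln, which encodes occludin, held 0.558 and 0.268 CPM in 687g, against 16.5 to 152 CPM elsewhere. Lsr, the lipoprotein receptor angulin-1 that recruits proteins to tricellular junctions, held 0.669 and 0.336 CPM in 687g, against 19.2 to 143 CPM elsewhere. Among the other lines, the mean of each of these 4 genes was highest in Epcam hi and lowest in pB3. Per kilobase of exon, Cldn7 at 92.1 and Cldn3 at 76.1 CPM per kb were the most abundant of the 21 over the other lines, against 0.315 and 0.727 CPM per kb in 687g.

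Their partners in the junction were examined after these values were seen. Cldn4 stood at 2.29 and 1.07 CPM in 687g, against 20.3 and 13.1 CPM in pB2, 122 and 126 CPM in pB3, and 1086 and 791 CPM in Epcam hi (-6.18 ± 0.33, edgeR, adjusted p = 3.82e-09). Marveld2, the tricellular junction protein tricellulin, stood at 1.56 and 1.27 CPM in 687g, against 11.3 to 90.1 CPM elsewhere (-4.49 ± 0.22, adjusted p = 1.66e-09). The cytoplasmic scaffold Tjp1 overlapped between lines, with 88.3 and 51.9 CPM in 687g and 53.8 to 125 CPM elsewhere (adjusted p = 0.117). No call was made for the junctional adhesion molecule F11r either (adjusted p = 0.341). The scaffold Tjp3 was called lower (adjusted p = 0.0201), at 0 and 0.134 CPM in 687g, against 20.4 and 20.7 CPM in pB2, 0.0671 and 0 CPM in pB3, and 5.27 and 2.41 CPM in Epcam hi. The claudin Cldn8 had counts in pB2 alone, at 15.5 and 16.2 CPM, and was not called.

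Surface proteolysis gave a protease and its inhibitor. St14, the membrane serine protease matriptase, stood at 0.335 and 0.604 CPM in 687g, against 165 and 155 CPM in pB2, 26.3 and 25.8 CPM in pB3, and 204 and 208 CPM in Epcam hi. Spint1, the Kunitz inhibitor HAI-1 that restrains matriptase, stood at 0.167 and 0.134 CPM in 687g, against 47.1 and 44.9 CPM in pB2, 12.8 and 12.03 CPM in pB3, and 42.3 and 46.9 CPM in Epcam hi. Protease and inhibitor were therefore both off. The related inhibitor Spint2 was lower but still present in 687g, at 17.7 and 26.0 CPM, against 156 to 579 CPM elsewhere (-3.77 ± 0.20, adjusted p = 4.23e-09).

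Polarised transport and splicing came next. Rab25, a small GTPase of epithelial recycling endosomes, held 0.502 and 0.268 CPM in 687g, against 13.6 to 175 CPM elsewhere. The broadly expressed relatives Rab11a and Rab11b were instead higher in 687g, at 466 and 547 CPM, and at 36.1 and 27.04 CPM (0.98 ± 0.15, adjusted p = 1.29e-04, and 1.08 ± 0.17, adjusted p = 1.92e-04). Ap1m2, the epithelial subunit of the AP-1 clathrin adaptor, held 0.558 and 0.470 CPM in 687g, against 234 and 192 CPM in pB2, 18.9 and 18.8 CPM in pB3, and 256 and 219 CPM in Epcam hi. Tom1l1, an adaptor for sorting ubiquitinated cargo, held 0.502 and 0.604 CPM in 687g, against 15.6 to 46.1 CPM elsewhere. Esrp1, which directs epithelial splice forms, held 0.335 and 0.134 CPM in 687g, against 111 and 125 CPM in pB2, 12.8 and 11.6 CPM in pB3, and 96.7 and 119 CPM in Epcam hi. Its paralogue Esrp2 was also lower, at 0.167 and 0.134 CPM in 687g, against 2.01 to 25.4 CPM elsewhere (-5.93 ± 0.39, adjusted p = 3.18e-08), and failed the rule because pB3 was under 10 CPM.

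Adhesion and the cytoskeleton included genes that are not confined to epithelia. Mpzl2, an immunoglobulin-like adhesion protein, held 0.335 and 0.403 CPM in 687g, against 13.2 to 124 CPM elsewhere, and Ppl, the desmosomal linker periplakin, 0.558 and 0.134 CPM in 687g, against 10.1 to 30.4 CPM elsewhere. Tenm4, a teneurin adhesion receptor of neurons, was at 0.279 and 0 CPM in 687g, against 21.4 and 29.8 CPM in pB2, 55.7 and 52.7 CPM in pB3, and 41.7 and 34.2 CPM in Epcam hi. Adgrl2, a latrophilin, held 0.558 and 0.671 CPM in 687g, against 12.2 to 49.1 CPM elsewhere. Lcp1, the actin bundler L-plastin of leukocytes and carcinoma cells, held 0.502 and 0.470 CPM in 687g, against 21.3 to 175 CPM elsewhere. Map2, a microtubule protein of dendrites, had 0.167 and 0.872 CPM in 687g, against 204 and 194 CPM in pB2, 10.1 and 10.03 CPM in pB3, and 13.0 and 12.1 CPM in Epcam hi. Ablim1, an actin-binding LIM protein, had 0.167 and 0.0671 CPM in 687g, against 10.1 to 37.7 CPM elsewhere. Map2 and Ablim1 sat at the 10 CPM threshold and no longer met the rule with either other scaling of the libraries.

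The remaining members have other roles. Sfn, the 14-3-3 sigma protein that p53 induces to arrest the cell cycle, was the member nearest to the threshold in 687g, at 0.948 and 0.939 CPM, against 12.4 to 115 CPM elsewhere. Dapk2, a calmodulin-regulated death-associated kinase, held 0.167 and 0.134 CPM in 687g, against 14.2 to 72.2 CPM elsewhere. Car2, the cytosolic carbonic anhydrase, held 0.279 and 0.403 CPM in 687g, against 18.4 to 46.6 CPM elsewhere. Slc35g1, a solute carrier family member, held 0.446 and 0.336 CPM in 687g, against 15.9 to 32.3 CPM elsewhere.

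Genes just outside the rules show where the thresholds fell. Tmem273, with 8.70 and 14.8 CPM in 687g and 0 counts in all 6 others, and Fabp7, a fatty acid binding protein with 8.59 and 9.13 CPM in 687g and at most 0.148 CPM elsewhere, missed through their level in 687g. The cytokine gene Il6, with 148 and 263 CPM in 687g, missed because 1 pB3 library reached 1.28 CPM, and Tnfaip8l3, a lipid transfer protein at 82.4 and 85.6 CPM in 687g, because 1 pB2 library reached 1.43 CPM. On the other side, the Notch receptor gene Notch1 missed with 1.17 and 1.27 CPM in 687g, against at least 19.5 CPM elsewhere. Bspry, at 0.112 and 0.134 CPM in 687g, missed because the pB2 libraries held 9.98 and 9.11 CPM.

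The promoters of 4 of the junction and transport genes are shown, picked from those that hold the CAGGTG letters. The promoters of Cldn7 and Spint1 do not hold them. In the same window the letters were found in 8 of the 16 promoters of genes off only in 687g that the RefSeq table holds. The share was 50%, against 2 of 17 for the genes on only in 687g (11.8%), 17.4% of the promoters of tested protein coding genes, and 20.05% of all promoters in the table. The letters CAGGTG or CACCTG are in capitals, and each line runs from 250 bases before to 50 after the RefSeq start site on the gene's strand (GRCm38.p6). Rab25 (chr3:88548230-88548529, minus strand) holds them at 64 and 53 bases before the start, and Lsr (chr7:30973420-30973719, minus strand) at 249, 219, 151 and 69 before it. Cldn3 (chr5:134985964-134986263, plus strand) and Ocln (chr13:100552669-100552968, minus strand) hold them at bases 32 and 8, counting the start site as base 1.
Rab25: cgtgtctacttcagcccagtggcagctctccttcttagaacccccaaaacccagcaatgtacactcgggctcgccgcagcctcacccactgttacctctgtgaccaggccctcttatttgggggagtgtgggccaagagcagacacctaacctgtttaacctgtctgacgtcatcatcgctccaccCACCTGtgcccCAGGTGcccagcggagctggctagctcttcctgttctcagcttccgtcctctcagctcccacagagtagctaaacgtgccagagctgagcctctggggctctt
Lsr: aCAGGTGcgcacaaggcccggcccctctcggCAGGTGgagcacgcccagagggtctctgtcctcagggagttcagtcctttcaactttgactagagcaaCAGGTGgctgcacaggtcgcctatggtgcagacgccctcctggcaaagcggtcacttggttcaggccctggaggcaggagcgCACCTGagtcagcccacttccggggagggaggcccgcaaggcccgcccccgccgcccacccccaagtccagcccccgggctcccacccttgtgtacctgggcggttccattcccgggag
Cldn3: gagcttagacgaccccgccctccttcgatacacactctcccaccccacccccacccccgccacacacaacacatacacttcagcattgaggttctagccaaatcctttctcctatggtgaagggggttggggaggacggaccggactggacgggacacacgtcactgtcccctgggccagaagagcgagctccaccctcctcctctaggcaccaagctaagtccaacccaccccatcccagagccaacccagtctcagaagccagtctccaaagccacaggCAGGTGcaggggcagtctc
Ocln: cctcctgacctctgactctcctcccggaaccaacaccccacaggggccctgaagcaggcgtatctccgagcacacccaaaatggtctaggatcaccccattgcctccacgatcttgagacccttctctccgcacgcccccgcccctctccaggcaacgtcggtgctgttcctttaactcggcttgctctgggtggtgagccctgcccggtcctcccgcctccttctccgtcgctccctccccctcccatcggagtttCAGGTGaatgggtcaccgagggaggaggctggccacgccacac
A match says only that these letters are present. The share with a CpG ratio (observed over expected) above 0.6, common in promoters of broadly expressed genes, was 7 of 17 for the genes on only in 687g and 9 of 16 for those off only in 687g, against 72.9% of the promoters of tested protein coding genes. Median ratios were 0.556 and 0.607, against 0.768.

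Positions on the genome were mostly scattered. The genes on only in 687g lie on 15 chromosomes and those off only in 687g on 12, with at most 4 on 1 chromosome in each set. Besides the Ifi203 pair, Cd33 lay 5.25 kb from a predicted gene that was also on only in 687g (chr7:43524216-43544428 for Cd33). Col5a3, on only in 687g, and Ap1m2, off only in 687g, lie 479 kb apart on chromosome 9. Of the 52 nearest tested neighbours of the first set, counted on each side and leaving out members, 26 were called higher in 687g and 6 lower. Of the 42 of the second set, 11 were called lower and 5 higher. The shares over all genes tested were 21.4% higher and 17.2% lower. Some neighbours called higher are related or overlapping genes, such as Mndal and Ifi211 in the Ifi200 cluster and Lilr4b beside Lilrb4a. The same holds for those called lower: predicted genes overlap Tenm4, Mpzl2 and Adgrl2, and Cldn4 is another claudin. These are not independent of the members, and a regional effect was not tested. The neighbours called higher include Cacna1g beside Abcc3, Igfbp3 beside Adcy1 and Ppp1r1a beside Pde1b, and those called lower include Cldn4 beside Cldn3 and Marveld2 beside Ocln.

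Among the other lines, pB3 had the lowest mean for 16 of the 21 genes off only in 687g. The fitted log2 difference of pB3 from the mean of pB2 and Epcam hi was looked at after this was seen, on values that also chose the genes, so it is given as a description with no test. Its median over the 21 was -1.87, against -0.02 over all genes tested. Ap1m2, the clathrin adaptor subunit, was at -3.58 ± 0.19 (fitted value ± standard error), and the splicing factor Esrp1 at -3.21 ± 0.20. Tenm4 was higher in pB3, by 0.80 ± 0.21. Since the rule required at least 10 CPM in pB3 as well, none of these genes was off there.

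**Figure D3:**
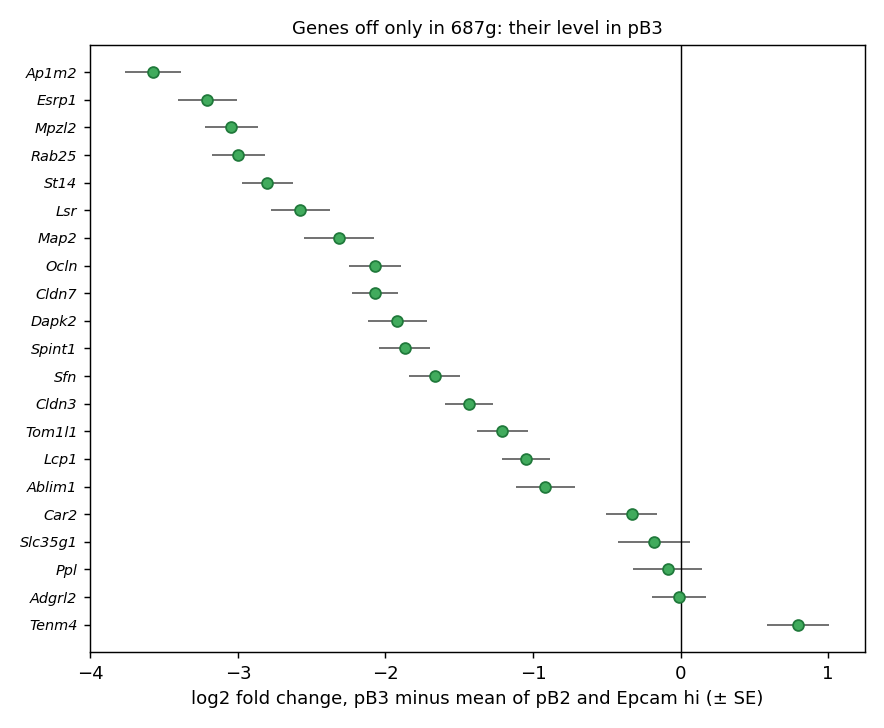
Points are the fitted log2 fold changes of pB3 minus the mean of pB2 and Epcam hi for the 21 genes off only in 687g, with bars for 1 standard error. Of the points, 20 lie left of 0, from -3.58 for Ap1m2 to -0.01 for Adgrl2, and Tenm4 lies right of 0 at 0.80.

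Lists of related genes showed how far the wider programmes followed. Members on or off only in 687g are included in these counts. The calls are those of single genes in the fit over all genes, and no list was tested as a whole. Of all genes tested, 21.4% were called higher and 17.2% lower. Of 29 epithelial adhesion and polarity genes tested, 20 were lower in 687g and 1 was higher (median log2 difference -4.41). Of the 20, 4 are genes off only in 687g, which were lower by the rule that chose them. In 18 of the lower ones both 687g libraries lay below all 6 others, against 10.2% of all genes for that stricter call and 11.6% for its counterpart above all others. E-cadherin, Cdh1, stood at 1.90 and 0.738 CPM in 687g, against 50.9 to 519 CPM elsewhere (-6.85 ± 0.30, adjusted p = 5.93e-10). The polarity gene Crb3 had 0 counts in 687g, against 5.10 to 62.4 CPM elsewhere, which makes it at least 270-fold lower when 687g is set to 3 counts over its libraries. Cgn, the junction protein cingulin, had 1 count in 687g and was lower by 598-fold (95% counting interval 107 to 23619). The exception was Pkp1, a desmosomal plakophilin, higher at 227 and 108 CPM in 687g, against 0.370 to 45.9 CPM elsewhere (4.37 ± 0.23, adjusted p = 4.27e-09).

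Epithelial regulators behaved alike, with 14 of 20 lower, 1 higher and 5 not called (median -6.15, or -4.87 with genes near 0 counts held at their floor). Of the 14, 4 are genes off only in 687g, again lower by the rule. Elf3 and Ovol2, epithelial transcription factors, had 0 counts in 687g and were at least 103-fold and 41.7-fold lower. Keratins did not follow as a group. Of 10 tested, 4 were higher and 2 lower, and Krt8 and Krt18 were not called. Krt14, a basal keratin, stood at 0.502 and 0.403 CPM in 687g, against 2.35 to 223 CPM elsewhere (-5.41 ± 0.26, adjusted p = 1.66e-09), and Krt19 at 0.836 and 0.671 CPM, against 2.51 to 86.5 CPM (-3.90 ± 0.24, adjusted p = 1.79e-08). Over all genes tested, 21.4% were higher and 17.2% lower. Of 20 luminal mammary genes 5 were higher and 6 lower, and of 9 basal and myoepithelial genes 3 were higher and 2 lower. The receptor gene Erbb3 was among the lower, at 0.335 and 0.201 CPM in 687g, against 4.59 to 51.5 CPM elsewhere (-5.87 ± 0.30, adjusted p = 2.28e-09).

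EMT transcription factors were more often higher, with 11 of 18 called higher and 2 lower (median 1.21), and 8 of the 11 had both 687g libraries above all others. Of all genes tested, 21.4% were called higher, 17.2% lower, and 11.6% higher with both 687g libraries above all others. Prrx1, a mesenchymal homeobox factor, stood at 167 and 157 CPM in 687g, against 77.4 and 77.8 CPM in pB3 and at most 0.601 CPM in pB2 and Epcam hi (6.59 ± 0.18, adjusted p = 1.86e-11). Mesenchymal cytoskeleton and adhesion genes gave 11 of 17 higher and 2 lower (median 2.01). Of the 17, 3 lay above all other libraries, not far from the 11.6% of all genes tested. Vim, which encodes vimentin, was not particular to 687g, with 3384 and 2332 CPM in 687g and 2307 and 2429 CPM in pB3, against 13.8 to 32.4 CPM in pB2 and Epcam hi.

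Ligands, antagonists and targets of BMP and TGF-beta had 17 of 25 called higher and 4 lower, with a median of 2.05. Of all genes tested, 21.4% were called higher and 17.2% lower. Of the 17, 16 had both 687g libraries above all 6 others, the largest share of tested members among the 25 pathway lists. That stricter call was made for 11.6% of all genes tested. The ligand Bmp2 stood at 364 and 410 CPM in 687g, against 1.12 to 13.9 CPM elsewhere (6.00 ± 0.15, adjusted p = 1.73e-11), and Bmp7 at 132 and 134 CPM in 687g, against 0.148 to 18.8 CPM elsewhere (5.49 ± 0.17, adjusted p = 2.86e-11). The BMP target genes Id1, Id2, Id3 and Id4, which encode inhibitors of differentiation factors, were all higher, and Id1 stood at 225 and 289 CPM in 687g, against 0.875 to 76.8 CPM elsewhere (4.37 ± 0.15, adjusted p = 4.39e-11). Antagonists were divided. Grem1 held 35.5 and 34.7 CPM in 687g, against 0 to 9.64 CPM elsewhere, while the activin antagonist Fst held 0.335 and 0.201 CPM in 687g, against 1.48 to 93.3 CPM elsewhere (-4.67 ± 0.32, adjusted p = 5.88e-08).

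Wnt genes had more higher than lower calls in each list, though with medians well under that of the BMP and TGF-beta genes. The shares over all genes tested were 21.4% higher and 17.2% lower. Of 8 ligands tested 4 were higher and 3 lower, of 20 receptors and co-receptors 6 and 2, of 10 inhibitors 4 and 1, and of 12 target genes 4 and 0, with medians from -0.01 to 0.45. Notum was the only target gene above all other libraries. As a gene on only in 687g it was higher by the rule, and it is counted among both inhibitors and target genes. Trabd2b, another secreted or membrane-bound enzyme that inactivates Wnt proteins, stood at 40.7 and 20.9 CPM in 687g, against 0.370 to 6.02 CPM elsewhere (4.10 ± 0.26, adjusted p = 2.13e-08). Wnt4 held 17.2 and 11.3 CPM in 687g, against 0 to 1.70 CPM elsewhere, while Wnt7b held 4.35 and 3.96 CPM in 687g, against 18.5 to 287 CPM elsewhere (-4.56 ± 0.21, adjusted p = 8.07e-10).

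Of 6 T-box genes tested, 3 were higher, all above every other library, and 1 lower. Tbx3, the closest relative of Tbx2 and needed for mammary buds, stood at 123 and 77.8 CPM in 687g, against 5.84 to 29.1 CPM elsewhere (2.97 ± 0.18, adjusted p = 1.46e-08). Limb, trunk and skeletal patterning factors gave 18 of 35 higher and 4 lower (median 1.03). The shares over all genes tested were 21.4% higher and 17.2% lower. Matricellular genes of the SPARC and CCN families, to which Smoc2 belongs, gave 12 of 17 higher and 2 lower (median 2.77). Smoc1, its paralogue, stood at 196 and 123 CPM in 687g, against 97.0 and 104 CPM in pB2 and at most 0.873 CPM in pB3 and Epcam hi (5.74 ± 0.20, adjusted p = 6.30e-11). Hox genes were near 0 in 687g, with 26 of 39 at 0 counts in both libraries, and 1 of the 14 tested was called lower. The low level was shared with Epcam hi: Hox genes summed to 4.91 to 5.17 CPM in 687g, against 5.76 to 6.40 CPM in Epcam hi, 42.3 to 44.7 CPM in pB3 and 52.4 to 53.3 CPM in pB2.

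**Figure D4:**
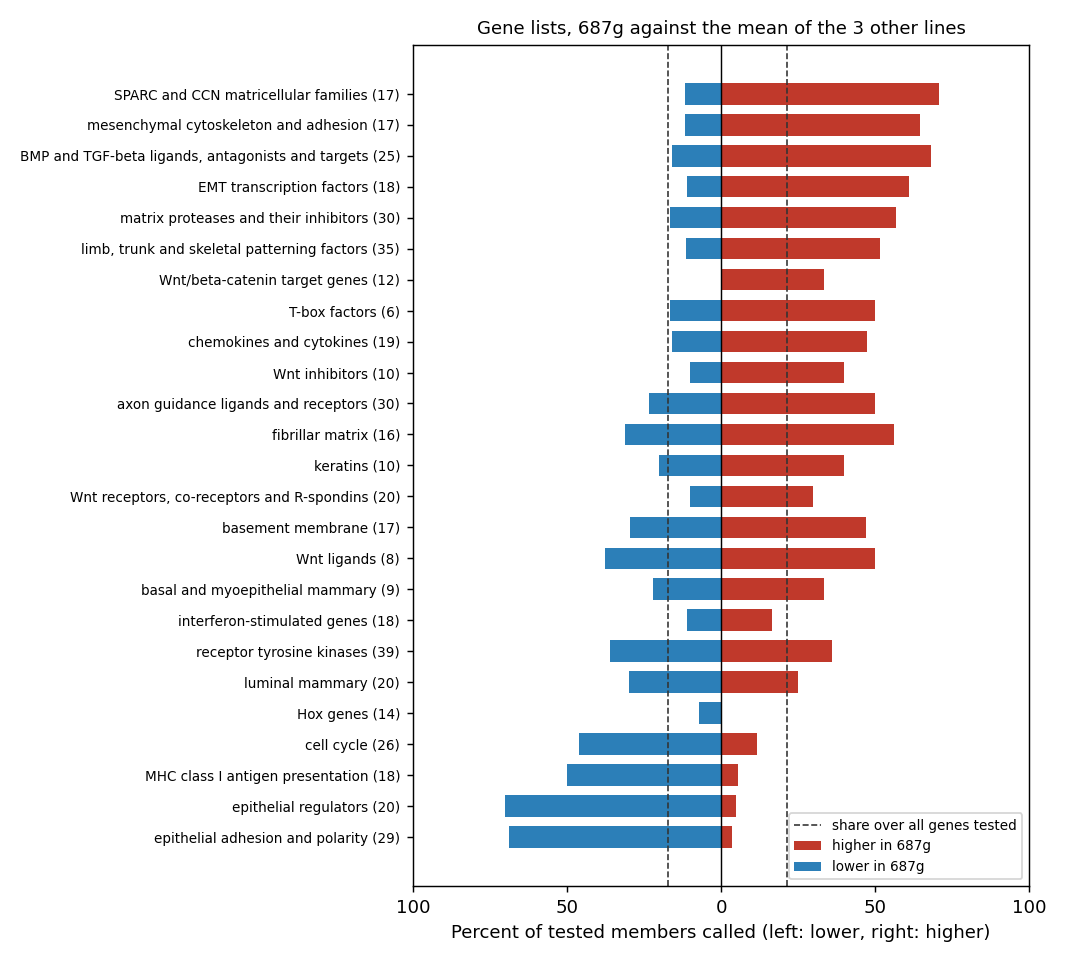
Bars give, for each list, the percent of tested members called higher in 687g (right) and lower in 687g (left) against the mean of the other lines, with the number tested in brackets. Genes on or off only in 687g are included. Dashed lines mark the shares over all genes tested, 21.4% higher and 17.2% lower, and the largest shares are those of epithelial regulators on the lower side (14 of 20) and of SPARC and CCN genes on the higher side (12 of 17).

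Among other lists, matrix, protease, axon guidance and cytokine genes were more often called higher than lower. MHC class I and cell cycle genes were more often called lower, beside 21.4% higher and 17.2% lower over all genes tested. Fibrillar matrix genes gave 9 of 16 higher and 5 lower, basement membrane genes 8 of 17 higher and 5 lower, and matrix proteases and inhibitors 17 of 30 higher and 5 lower. Timp1, an inhibitor of metalloproteinases, stood at 966 and 1287 CPM in 687g, against 1.17 to 331 CPM elsewhere (5.03 ± 0.15, adjusted p = 2.16e-11). Receptor tyrosine kinases gave 14 of 39 higher and 14 lower, axon guidance genes 15 of 30 higher and 7 lower, and chemokines and cytokines 9 of 19 higher and 3 lower. Antigen presentation by MHC class I gave 9 of 18 lower and 1 higher (median -0.55), and H2-Q4 stood at 0.502 and 0.738 CPM in 687g, against 4.90 to 14.2 CPM elsewhere (-3.61 ± 0.32, adjusted p = 6.15e-07). Cell cycle genes gave 12 of 26 lower and 3 higher (median -0.32), with Ccne1, for cyclin E, at 11.99 and 14.7 CPM in 687g, against 33.3 to 70.6 CPM elsewhere (-1.97 ± 0.18, adjusted p = 8.10e-07).

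Large differences were also found for genes that met neither rule. Selp, which encodes P-selectin, an adhesion receptor of endothelium and platelets, stood at 432 and 327 CPM in 687g, against 0.148 to 1.54 CPM elsewhere (9.49 ± 0.21, adjusted p = 7.08e-12). Chst15, a sulfotransferase of chondroitin sulfate, stood at 62.0 and 50.8 CPM in 687g, with 2.48 and 1.62 CPM in pB3 and 0 counts in pB2 and Epcam hi. Mean Il6 in 687g was 506 times that of the other lines, again for a gene that reached no more than 1.28 CPM elsewhere. On the lower side, Hook1, a microtubule linker, and Kdf1, a keratinocyte differentiation factor, had 2 counts and 1 count in 687g and were lower by 429-fold (95% counting interval 119 to 3548) and 491-fold (95% counting interval 88.1 to 19426). The protein kinase C gene Prkch had 0 counts in 687g and was at least 129-fold lower.

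Markers of other cell types were summed in each library. For 13 leukocyte markers the sum was 59.0 to 68.8 CPM in 687g, against 38.3 to 109 CPM in the other lines, with 9 of the 13 at 0 counts in 687g, Ptprc, Cd3e, Itgam and Adgre1 among them. Csf1r, a macrophage receptor on the same list, was higher, at 2.79 and 0.939 CPM in 687g, against 0 to 0.562 CPM elsewhere. It passed the filter on low counts through 687g, so these values are a description. The sum of 13 fibroblast markers was 953 to 1146 CPM in 687g, against 76.1 to 469 CPM elsewhere. Most of the 687g sum was Smoc2 alone, at 786 and 704 CPM. Of the 6 fibroblast markers tested, 3 were higher, Smoc2 among them, and 2 lower, beside 21.4% and 17.2% of all genes tested. In 2 of these 6, a line had at most 3 counts. Pdgfrb, a growth factor receptor of mesenchymal cells, stood at 13.5 and 8.12 CPM in 687g, against 0 to 1.55 CPM elsewhere. Dcn, Dpt and Col3a1 had 0 counts in 687g, and Dcn was at most 0.148 CPM in the other lines as well. Endothelial markers summed to 1.12 to 1.27 CPM in 687g, against 1.41 to 9.64 CPM elsewhere, so Selp was high where these markers were low. The part of other cells in the results was not tested. The 8 adipocyte markers summed to 47.9 to 52.6 CPM in 687g, 22.0 to 23.6 CPM in pB2 and at most 1.29 CPM in pB3 and Epcam hi. All 4 that were tested were higher in 687g, beside 21.4% of all genes tested. In 3 of the 4, a line had at most 3 counts. Pparg stood at 24.1 and 23.7 CPM in 687g, against 0 to 2.49 CPM elsewhere, while Adipoq, Plin1 and Lep were at 0 in 687g. Pericyte and smooth muscle markers summed to 11.9 to 16.3 CPM in 687g, against 6.01 to 119 CPM elsewhere, and Schwann cell and melanocyte markers to 3.89 to 4.85 CPM in 687g, against 5.32 to 37.6 CPM elsewhere. Of 10 skeletal muscle markers 6 were at 0 counts in 687g and the 1 tested was lower, and the sum for cartilage and bone was 78.2 to 100.1 CPM in 687g, against 77.1 to 194 CPM elsewhere. Of the 6 cartilage and bone markers tested, 4 were higher and 2 lower, beside 21.4% and 17.2% of all genes tested. In 4 of these 6, a line had at most 3 counts. Runx2, a bone transcription factor, stood at 48.4 and 28.0 CPM in 687g, against 8.15 to 14.8 CPM elsewhere, and the cartilage factor Sox9 at 35.2 and 33.4 CPM in 687g, against 63.0 to 131 CPM elsewhere.

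The calls depend on how the spread is measured. Treating the 6 other libraries as 1 group, so that differences among pB2, pB3 and Epcam hi enter the spread, left 289 genes higher and 157 lower, all of them without overlap. Of the genes above, Smoc2, Bmp2, Id3, Tbx3, Ahr, Aim2, Ifi204, Mndal, Selp, Cdh1, Epcam, Crb3, Cgn, Hook1, Kdf1, Spint2, H2-Q4 and Ccne1 were still called, while the calls ended for Elf3, Ovol2, Krt14, Krt19, Erbb3, Prrx1, Wnt4, Trabd2b, Timp1, Ifit2, Chst15, Prkch, Pkp1, Ifi211, Vim, Col5a1, Grem1, Id1, Id2, Id4, Bmp7, Cldn4, Pparg, Esrp2, Rab11a, Rab11b, Marveld2, Fst, Daam1, Smoc1 and Wnt7b. In that fit 157 of the 15890 genes tested were lower and 289 higher. Still lower were 9 of the 29 epithelial adhesion genes and 5 of the 20 epithelial regulators. Each of these lists holds 4 genes off only in 687g. Of the lists with more higher calls, 4 BMP and TGF-beta genes, 2 SPARC and CCN genes, 1 EMT factor and 1 mesenchymal gene were still higher, and no fibrillar matrix gene was, with a median of -1.31 there. Leaving out a line turned the balance of some lists. Over all genes, calls were 2561 higher and 2071 lower of 14854 tested without pB2, and 3345 and 2826 of 15584 without pB3. They were 3869 and 3468 of 15314 without Epcam hi, and 3299 and 3178 of 15890 with limma-voom. Without pB2, basement membrane genes were 3 higher and 7 lower, keratins 3 and 5, Wnt ligands 3 and 4, and basal and myoepithelial genes 2 and 3. The last were 3 and 4 without pB3 and with limma-voom. Interferon-stimulated genes were 2 and 6 without Epcam hi and 3 and 5 without pB3. Single libraries also moved some values: without the first 687g library the log2 difference was 3.74 for Pkp1, -6.83 for Cldn4, -7.71 for Cdh1 and -6.39 for Ifit2, and without the second it was -3.98 for Ifit2.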

How the data were processed

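RNA of 8 libraries, 2 for each of the lines 687g, pB2, pB3 and Epcam hi, was sequenced as poly(A)-selected mRNA. The authors deposited read counts per gene. Reads were aligned with STAR 2.6.1a to GRCm38 (mm10) and counted with featureCounts, per the submitters' processing notes, with strand taken into account per the series' design text. Symbols were matched for 53274 of 53379 genes.

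Total counts of 12442730 to 19149916 give 3 counts a value of 0.159 to 0.222 CPM in 1 library. Intervals and floors cover counting error only. CPM were scaled by TMM factors of edgeR 4.0.16 (R 4.3.3). All 8 libraries entered 1 quasi-likelihood fit with a coefficient per line, on the 15890 genes kept by the default filter, and 687g was set against the mean of the 3 other lines with Benjamini-Hochberg adjustment at 0.05. The step was tested on simulated data. A line with at most 3 counts over its 2 libraries has no fold printed from the fit: folds use means of CPM or a floor of 3 counts over both libraries.

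Members, lists and markers were chosen with earlier results of these data known. Genes named are the members up to 25 a direction, 2 per list, the 8 largest differences in each direction and genes nearest to the thresholds, with Myl10 added so that no member with a full symbol is left out. Others were chosen after their values were seen, with predicted genes counted only. DESeq2 1.42.0, limma 3.58.1 (voom), other scalings, filters, thresholds, a 2-group fit, left-out libraries and lines and a replicate block were alternatives. Promoters come from RefSeq (GRCm38.p6), which matched 17 of 27 and 16 of 21 members. Some genes are not reported here.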

Additional observations from a re-analysis of the deposited data

How the results depend on the processing

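The spread between lines set the largest change: a fit with the 6 other libraries as 1 group left 289 genes higher and 157 lower, all of them (289 and 157) without overlap, and ended the calls of 55 of the 91 single genes followed. Without pB3 the rules gave 75 genes on only and 65 off only in 687g. Without Epcam hi they gave 42 and 34, 2548 genes were lower without overlap, and Ifi202b turned from lower to 0.033 on the log2 scale. Thresholds of 5 and 1 CPM gave 50 and 41 genes, 20 and 1 CPM gave 10 and 5, 10 and 0.5 CPM gave 14 and 8, and 10 and 2 CPM gave 33 off only. The causes were not tested. Leaving out 1 library at a time gave 2853 to 4072 higher and 2030 to 2975 lower genes, 1845 to 2407 and 1412 to 1921 without overlap, 27 to 32 on only and 19 to 25 off only. Differences between same-numbered libraries correlated at -0.0983 to 0.173 between lines, over 0.1 for pB2 with Epcam hi alone, so the numbers were not taken as pairs. With the replicate block 3341 genes were higher and 2660 lower, 1819 and 1576 without overlap, and no single gene lost its call. Total counts dropped Daam2 and Ephx2 from the genes on only in 687g. Ablim1 and Map2 left the genes off only under that scaling, the RLE factors, and without any 1 pB2 library or the first Epcam hi library, which also removed Ppl. Without the first 687g library Cdh1 was off only, and without the second Tbx2 was on only. The genes off only in 687g rest on 4 to 31 counts there, and lower genes such as Crb3 on 0, which limits the folds.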
